A study of Mus musculus with 27 samples.

Results

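The cerebellin genes Cbln1, Cbln2, Cbln3 and Cbln4 and the delta glutamate receptor gene Grid1 were followed in the mouse cerebellum and in its Hedgehog-driven tumours. The members were all probe sets annotated to exactly 1 of these 5 genes, which gave 5 of 18194 genes and 9 of the 45101 probe sets of the array table (3 for Cbln1, 2 each for Cbln3 and Grid1, and 1 each for Cbln2 and Cbln4). Of the 9, 7 passed the filter on low signals, and the probe set of Cbln2 and the second probe set of Grid1 did not. The samples were 27 single-sample Affymetrix arrays. There were 7 tumours of Olig2-tva-cre:SmoM2 mice and 6 of hGFAP-cre:SmoM2 mice, whose drivers are known to act in multipotent progenitors, 3 of Math1-cre:SmoM2 and 3 of Tlx3-cre:SmoM2 mice, whose drivers are known to act in the granule lineage, and 2 of Ptc1+/- mice. In the 19 SmoM2 tumours a cre driver switches on SmoM2, an activated form of Smoothened, in the cells where its promoter is or was active, and Ptc1+/- mice carry 1 working copy of the Patched gene. The 6 arrays of cerebellar tissue without tumour came from Ptc1+/- (replicate 6), Mxi1-cre:SmoM2 (4 and 5), hGFAP-cre:SmoM2 (3) and Olig2-tva-cre:SmoM2 mice (1 and 2). No control came from the Math1-cre or Tlx3-cre line, and no tumour came from the Mxi1-cre line. The labels call the tumours biological replicates and name neither animals nor ages, and every p-value here reflects only how far these samples spread, which may in part be technical.

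Cerebellins are small secreted proteins of the C1q and tumour necrosis factor superfamily that organise synapses. Granule neurons release Cbln1 from their parallel fibres, where it joins presynaptic neurexins to delta glutamate receptors on Purkinje cell spines and holds the synapse together. Cbln3 is made by granule neurons and leaves the cell in complexes with Cbln1. Cbln2 and Cbln4 do similar work at other synapses of the brain. Grid1 encodes a delta receptor that also binds cerebellins.

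The promoter windows used here covered 2 of the members, Cbln3 and Cbln4, the cerebellins whose signal moved furthest in opposite directions in the tumours. They are given from RefSeq on GRCm38.p6, 5′ to 3′ along the gene, from 250 bases before to 50 bases after the annotated start. Both genes lie on the minus strand, Cbln3 at chr14:55884207-55884506 and Cbln4 at chr2:172043417-172043716. Capitals mark matches to 4 short motifs searched on both strands, the E-boxes CAGCTG and CAGATG, the GLI core TGGGTGG and the TATA element TATAAA.
Cbln3: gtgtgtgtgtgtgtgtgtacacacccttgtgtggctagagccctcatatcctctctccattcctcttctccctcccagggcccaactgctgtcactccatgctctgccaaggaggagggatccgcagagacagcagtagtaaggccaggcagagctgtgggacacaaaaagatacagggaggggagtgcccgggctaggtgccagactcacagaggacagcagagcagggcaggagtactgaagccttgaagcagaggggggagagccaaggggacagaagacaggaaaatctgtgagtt
Cbln4: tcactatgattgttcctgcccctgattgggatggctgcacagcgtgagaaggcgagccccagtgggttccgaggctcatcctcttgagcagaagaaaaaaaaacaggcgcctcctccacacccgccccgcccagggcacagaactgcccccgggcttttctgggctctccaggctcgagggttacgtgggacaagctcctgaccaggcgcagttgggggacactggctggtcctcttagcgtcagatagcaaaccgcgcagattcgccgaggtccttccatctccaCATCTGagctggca
In these letters the Cbln4 window held 1 match, CAGATG on the opposite strand, 37 bases after the start, and the Cbln3 window held none. Of the 32851 mouse promoter windows of this length that were searched, 17.2% held CAGATG, 16.3% held CAGCTG, 13.6% held TATAAA and 9.3% held TGGGTGG. The G and C content was 57.0% for Cbln3 and 60.3% for Cbln4.

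Values are log2 of the MAS5 signal after each array was scaled to the same trimmed mean. Signals under the 20th percentile of the table were raised to a floor of 3.37 (log2), and the median of the table lay at 5.51. Array brightness before scaling, given as the trimmed mean signal, ranged from 117.9 to 160.98 in tissue without tumour, from 42.58 to 205.45 in Olig2 tumours and from 47.27 to 92.06 in Ptc1+/- tumours. The mean log2 ratio of 3' to 5' control probe sets, a measure of RNA quality, ran from -0.15 to 1.88 over all arrays. The tissue label was read from markers fixed for the cerebellum. Zic1, a factor of the granule lineage, had a mean log2 signal of 12.47 in tissue without tumour and 12.74 over the tumour groups, En2, a regional factor, had 9.80 and 8.39, and Pax6 had 8.25 and 9.13. The other regional markers were low in tissue without tumour, Barhl1 at 5.92 (10.27 in tumours) and En1 at 4.18 (4.87 in tumours), the latter under the table median with 1 control and 3 tumour arrays at the floor.

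Cbln1 and Cbln3 were far lower in every tumour group than in tissue without tumour, Cbln4 was higher in every group, and Grid1 was moderately lower over the tumours together. All 7 tested probe sets differed between the tumours and tissue without tumour (limma adjusted p under 0.05), 6 lower and 1 higher. Among all 30107 probe sets tested, 46.8% were called in this comparison, 22.4% lower and 24.4% higher, so a call alone is common here. In 6 of the 7 the 21 tumour arrays and the 6 control arrays did not overlap. All tumour arrays lay below all controls for 5 of these probe sets, against 8.11% of all tested, and above them for 1, against 6.58% of all tested. In whole tissue, fewer cells of a type and less RNA per cell cannot be told apart.

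**Figure D1:**
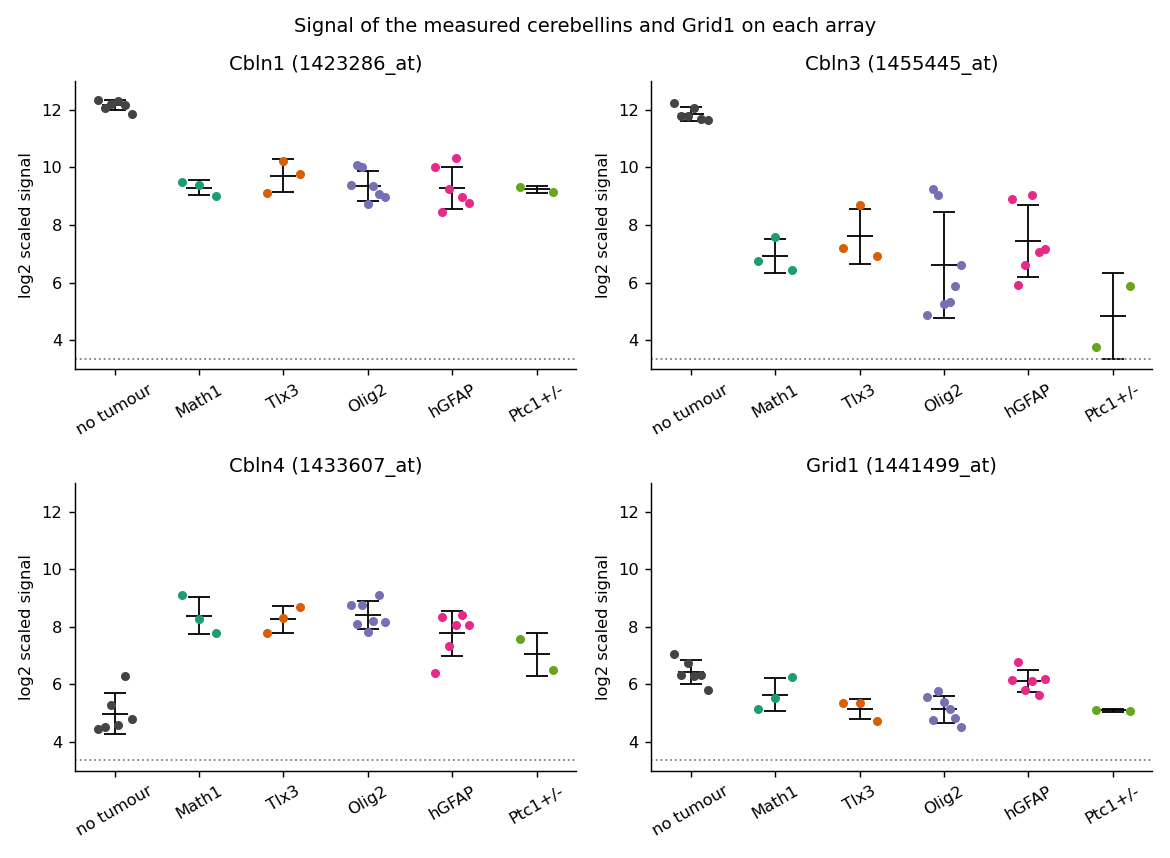
Log2 scaled signal (vertical axis) of the main probe set of Cbln1, Cbln3, Cbln4 and Grid1 on each array, by group (horizontal axis). Points are arrays, the long tick and bars are the mean ± SD, and the dotted line is the floor of 3.37. Cbln1 and Cbln3 lie lower and Cbln4 higher on all 21 tumour arrays than on all 6 controls, while Grid1 in hGFAP tumours overlaps the controls.

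Cbln1, the ligand that bridges parallel fibres and Purkinje cells, was lower in all 5 tumour groups. Its main probe set (1423286_at, the one with the highest mean) read 11.84 at the lowest, 12.19 at the median and 12.33 at the highest in the 6 controls. In Math1 tumours it read 9.50, 9.38 and 9.0, and in Tlx3 tumours 9.10, 10.24 and 9.79. Its lowest, median and highest values were 8.73, 9.36 and 10.08 in Olig2 tumours and 8.44, 9.11 and 10.33 in hGFAP tumours. The Ptc1+/- tumours read 9.33 and 9.16. Even the highest tumour array, an hGFAP tumour, stayed below the lowest control, the array from a Ptc1+/- mouse, and no tumour array came near the floor.

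Cbln1 was lower by 2.77 log2 units over the tumour groups, a 6.84-fold difference of scaled signal (difference -2.77, SE 0.22, limma adjusted p = 2.78e-11, n = 21 and 6). On this probe set the differences of the single groups ran from -2.91 in Ptc1+/- tumours through -2.86 (both Math1 and hGFAP) and -2.78 (Olig2) to -2.45 in Tlx3 tumours. Each of these passed (adjusted p from 8.25e-10 to 1.41e-06). Of all probe sets, 44.8% were called in either direction in Olig2 tumours, 36.4% in hGFAP, 33.7% in Tlx3, 32.1% in Math1 and 31.1% in Ptc1+/- tumours. Of the 7 member probe sets, 6 were called in Math1 and in hGFAP tumours and 7 in each of the other groups. All 5 probe sets of Cbln1 and Cbln3 were called lower in every tumour group, against 9.71% of all tested, and that of Cbln4 was called higher in every group, against 9.81%. These 5 comparisons share the control arrays. The other probe sets of Cbln1 differed by -3.23 (1423287_at, adjusted p = 6.00e-11) and -2.49 (1423288_s_at, adjusted p = 6.66e-12) over all tumours. By group the first ran from -3.58 in Ptc1+/- to -2.91 in Tlx3 tumours. The second ran from -2.56 in Olig2 to -2.38 in hGFAP tumours, so the group order differed between probe sets. On all 3 probe sets the tumour arrays were above the median of the table, so the lower signal of the tumours was still a measured one.

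The signal of Cbln3, the cerebellin of granule neurons, fell furthest. On its main probe set (1455445_at) the controls ran from 11.66 through a median of 11.77 to 12.24. The Math1 tumours read 6.77, 7.58 and 6.43, the Tlx3 tumours 7.19, 8.70 and 6.93, and the Ptc1+/- tumours 3.78 and 5.90. The lowest, median and highest values were 4.89, 5.89 and 9.27 in Olig2 tumours and 5.92, 7.11 and 9.03 in hGFAP tumours. Control arrays were thus tightly grouped (SD 0.23, n = 6), whereas the tumours spread over several log2 units, with an SD of 1.83 (n = 7) in Olig2 and 1.25 (n = 6) in hGFAP tumours. Olig2 replicates 2 and 3 stood at 9.27 and 9.06 and the other five Olig2 tumours at 6.61 or lower.

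Over all tumours Cbln3 differed by -5.17 log2 units from tissue without tumour (SE 0.52, limma adjusted p = 2.09e-09). Among all those tested, 10 of the 30107 probe sets had a more negative value. The difference was -5.25 in Olig2, -4.93 in Math1, -4.41 in hGFAP and -4.25 in Tlx3 tumours. In the 2 Ptc1+/- tumours it was -7.02, and as their replicate 1, at 3.78, lay near the floor it became -5.96 without that array and -8.09 without the other. All 5 passed, with adjusted p from 3.85e-08 to 8.60e-05. The second probe set (1422911_at) gave -4.56 over all tumours (SE 0.39, adjusted p = 7.19e-11) and from -5.41 to -4.11 by group, all passing. Its controls ran from 9.21 to 10.21 and its tumours from 3.77 to 7.19. On that probe set the Ptc1+/- tumours, at 4.44 and 4.37, and 11 other tumours were below the table median, where signal and background are hard to separate.

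**Figure D2:**
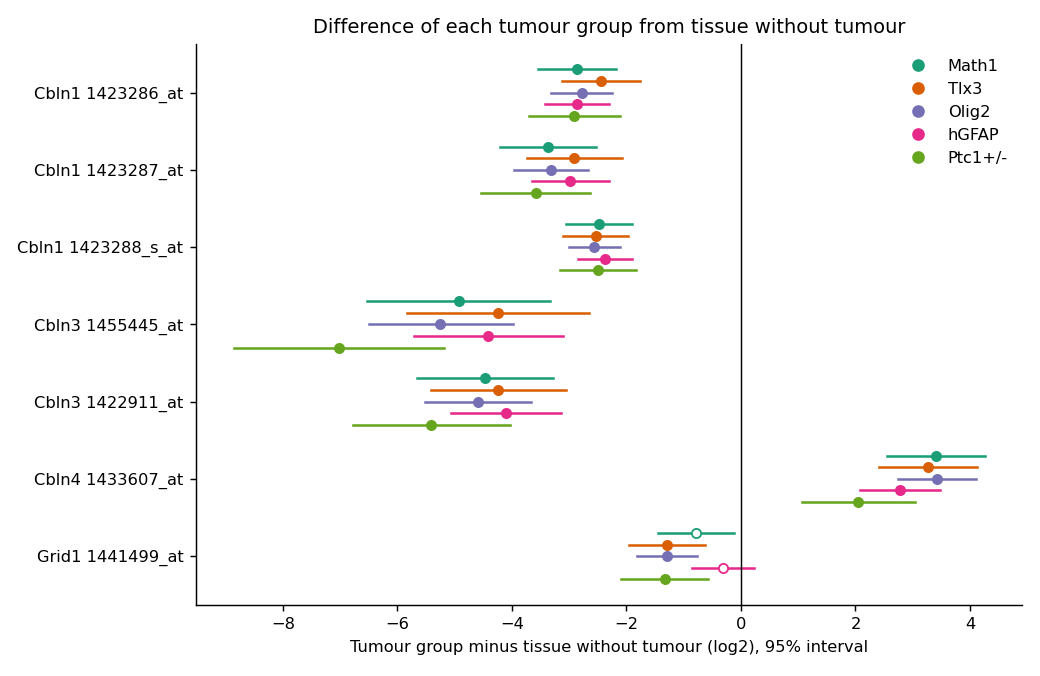
Difference of each tumour group from tissue without tumour on the log2 scale (horizontal axis) for the 7 tested probe sets (vertical axis), with 95% intervals of the limma fit. Filled points passed an adjusted p under 0.05 and open points did not. The Cbln1 and Cbln3 probe sets lie left of 0 and Cbln4 right of 0 in all 5 groups, and the 2 open points are Grid1 in Math1 and hGFAP tumours.

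The signal of Cbln3 fell by more than that of Cbln1 within the same arrays. The log2 signal of Cbln3 minus that of Cbln1, on the main probe sets, ran from -0.50 to -0.09 in the controls (mean -0.30, SD 0.15, n = 6). In the tumours it ran from -5.56 through a median of -2.52 to -0.81 (mean -2.51, SD 1.21, n = 21). All 21 tumour arrays lay below all controls, and the means differed by -2.21 (exact permutation test, two-sided, p = 0.00024, 296010 splits). The test pools the tumour groups and treats tumours and controls as exchangeable. With an SD of 0.15 in controls and 1.21 in tumours, p reflects unequal spread as well as a shift of the mean. The members, among them the gene that fell furthest, were chosen with earlier results of these data known, so p is given as a description. With the other pairings of the 2 probe sets of Cbln3 and the 3 of Cbln1, the difference ran from -2.50 to -1.27, with exact permutation p from 3.38e-06 to 0.00148. In 3 of the 6 pairings 1 or 2 tumours overlapped the controls. Only the change of this quantity is compared, since the level of a probe set cannot be set against that of another. The change too differed between probe sets of 1 gene, from -3.23 to -2.49 for Cbln1 and from -5.17 to -4.56 for Cbln3. The part of probe set response in the larger fall of Cbln3 was not tested.

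Among the tumours, 5 arrays stood apart by having more of both genes, Olig2 replicates 2 and 3, hGFAP replicates 1 and 4 and Tlx3 replicate 2. Their Cbln3 signal was 8.70 or more, where the next tumour read 7.58, and their Cbln1 signal was 10.02 or more, where the next read 9.79. Of these arrays, Olig2 replicate 3 and hGFAP replicate 4 were also among the 5 with the highest 3' to 5' ratio. Over the 21 tumour arrays Cbln1 and Cbln3 had Pearson's r of 0.67 (permutation p = 0.00085, adjusted p = 0.00623 over 22 relations) and Spearman's rho of 0.55 (permutation p = 0.0114, adjusted p = 0.0502). Without the 2 arrays farthest from the median of Cbln1, r was 0.57, and with group means removed it was 0.74. It was 0.80 in the 7 Olig2 and 0.93 in the 6 hGFAP tumours, each of which holds 2 of the 5 arrays. Among the other 16 arrays r was 0.00 (permutation p = 0.998, rho = 0.01). That subset was cut on Cbln3 after seeing the data, which narrows the range of both genes and can by itself lower r. How far the relation depends on the 5 arrays was therefore not tested.

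**Figure D3:**
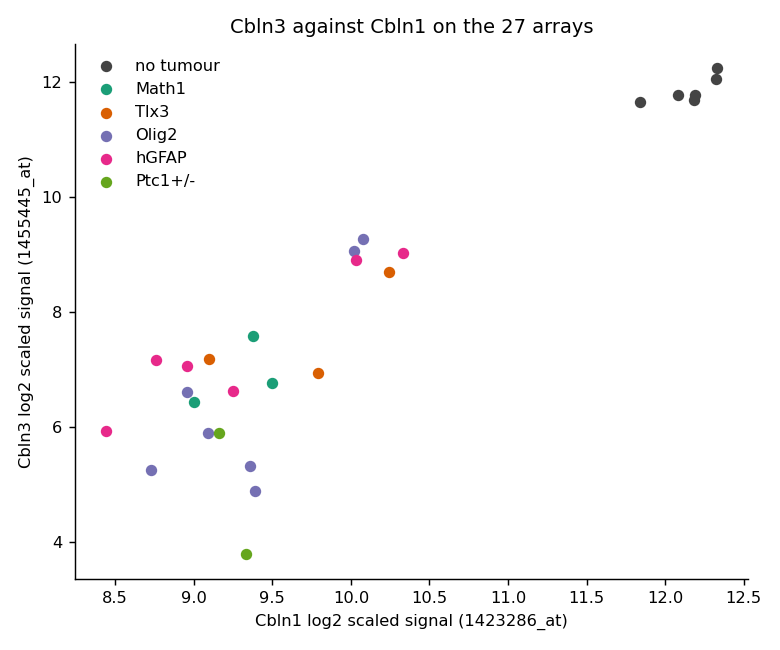
Log2 scaled signal of Cbln3 (vertical axis) against Cbln1 (horizontal axis) on the 27 arrays, coloured by group. The 6 controls form a group at the upper right, and 5 tumours (Olig2 2 and 3, hGFAP 1 and 4, Tlx3 2) read 8.70 or more for Cbln3, above the other 16 tumours, which read 7.58 or less.

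Most markers of mature granule neurons and Purkinje cells were lower in the tumours than in tissue without tumour, as both genes were. All 11 measured genes of the mature granule neuron list fell in the tumours (median difference -4.13, against 0.02 over all 13527 genes by main probe set, of which 25% fell), with Gabra6, a GABA receptor subunit, at -5.46 and Chn2, a Rac-regulating protein, at -4.96. Of 10 Purkinje cell genes 9 fell (median -4.83), led by the glutamate transporter gene Slc1a6 at -5.27 or lower, with 12 tumour arrays at the floor, and Pcp2 at -4.92 or lower, with 1 at the floor. The log2 of the summed signal of the granule list ran from 14.24 to 14.81 in the controls and from 10.49 to 12.62 in the tumours, and that of the Purkinje list from 14.67 to 15.14 and from 9.55 to 12.40. Bright genes weigh most in such a sum. In the tumours the brightest granule gene was Rbfox3, at a mean of 11.01 and a difference of -0.98, with the others at 7.27 or lower. For the Purkinje list it was Dner at 8.88, followed by Stmn4 at 8.60. No defining marker of either list was at the floor on all tumour arrays. Over the 21 tumour arrays Cbln3 followed the granule list (r = 0.78, permutation p = 3e-05, adjusted p = 0.00033, rho = 0.78, permutation p = 8e-05, r = 0.72 without the 2 farthest arrays). It also followed the Purkinje list (r = 0.90, permutation p = 1e-05, the smallest the permutations can give, adjusted p = 0.00022, rho = 0.91, permutation p = 1e-05, r = 0.88 without the 2 farthest). With group means removed these were 0.70 and 0.92. For Cbln1 the same relations had r = 0.38 (permutation p = 0.0855, adjusted p = 0.269, rho = 0.36, permutation p = 0.113) and r = 0.53 (permutation p = 0.0136, adjusted p = 0.0499, rho = 0.52, permutation p = 0.0182, adjusted p = 0.0667). Without the 2 farthest arrays they were 0.20 and 0.41. With the cut on Cbln3 described above, 16 tumour arrays were left. There Cbln3 had r = 0.61 with the granule list (permutation p = 0.0111) and 0.86 with the Purkinje list (permutation p = 2e-05). The part of remaining mature cells in the levels of Cbln1 and Cbln3 was not tested.

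Cbln4, a cerebellin with a role at synapses outside the parallel fibre system, went the other way. The controls read 4.45, 4.69 and 6.29 as lowest, median and highest, and 5 of the 6 were below the table median. The Math1 tumours read 9.09, 8.28 and 7.80, the Tlx3 tumours 7.78, 8.29 and 8.70, and the Ptc1+/- tumours 7.58 and 6.50. In Olig2 tumours the lowest, median and highest were 7.81, 8.19 and 9.12, and in hGFAP tumours 6.40, 8.05 and 8.42. The tumours closest to the controls were hGFAP replicate 1, at 6.40, and Ptc1+/- replicate 2, at 6.50, just above the highest control, an Mxi1-cre:SmoM2 array at 6.29.

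Cbln4 rose by 2.98 log2 units over the tumours (SE 0.28, limma adjusted p = 5.20e-10), and 420 of the 30107 probe sets had a larger increase. The gain was 3.42 in Olig2, 3.40 in Math1, 3.27 in Tlx3, 2.78 in hGFAP and 2.05 in Ptc1+/- tumours, all called (adjusted p from 1.09e-09 to 0.0015). The last of these rests on 2 arrays, and on the signals as deposited, without scaling the arrays to a common trimmed mean, it was 0.95 (adjusted p = 0.204). Without Ptc1+/- replicate 1 it was 1.51 (adjusted p = 0.0827). The setting without scaling shifts the median of all probe sets in this comparison to -0.96. Cbln4 had 1 probe set, so no second measurement of the gene was at hand. Over the 21 tumour arrays Cbln4 was related neither to Cbln1 (r = 0.00, permutation p = 0.996, adjusted p = 0.996, rho = 0.10, permutation p = 0.654) nor to Cbln3 (r = -0.03, permutation p = 0.909, adjusted p = 0.952, rho = -0.01, permutation p = 0.971) beyond what permutations gave. Of 10 genes of granule neuron precursors 8 rose (median 4.67, against 26.4% rising among all genes), with Sox11 at 6.53 and Mki67 at 6.29 or more, 1 control array being at the floor. In that list Zic2 fell, at -0.64 (adjusted p = 0.0115), and Zic1 stood at 0.27 (adjusted p = 0.219). Microglia and macrophage genes rose too (6 of 7, median 2.50). The part of either in the gain of Cbln4 was not tested.

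Grid1, the delta receptor gene, had the smallest difference from tissue without tumour among the tested probe sets. On its main probe set (1441499_at) the controls had 5.82, 6.33 and 7.06 as lowest, median and highest. The Math1 tumours read 5.14, 5.53 and 6.25, the Tlx3 tumours 5.34, 5.35 and 4.74 and the Ptc1+/- tumours 5.13 and 5.08. In Olig2 tumours the lowest, median and highest were 4.52, 5.14 and 5.77, and in hGFAP tumours 5.65, 6.13 and 6.78. All Tlx3, Olig2 and Ptc1+/- arrays lay below every control, as did 2 of the 3 Math1 and 2 of the 6 hGFAP tumours, which makes 16 of 21. Among these, hGFAP replicate 3, at 5.82, equalled the lowest control to the digits given. The other Math1 tumour and the other four hGFAP tumours lay among the controls.

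Over the tumour groups Grid1 was lower, by 2.0-fold (difference -1.0, SE 0.22, limma adjusted p = 0.000326). It passed in Tlx3 (-1.29, adjusted p = 0.00256), Olig2 (-1.29, adjusted p = 0.000123) and Ptc1+/- tumours (-1.33, adjusted p = 0.00682). It did not pass in Math1 (-0.79, adjusted p = 0.0616, 95% interval from -1.45 to -0.13 before adjustment) or in hGFAP tumours (-0.31, adjusted p = 0.376, 95% interval from -0.85 to 0.22). Leaving out Ptc1+/- replicate 2 ended the call in that group (-1.30, adjusted p = 0.0617), and leaving out Math1 replicate 3 (-1.10, adjusted p = 0.0246) or control 6 (-0.91, adjusted p = 0.0334) gave a call in Math1 tumours. Signals were modest, as 16 of the 27 arrays were above the table median. The second probe set of Grid1 (1421569_at) went the other way at signals near the floor. It was at the floor on 13 arrays, 5 of them controls, and 11 of the 21 tumours read above the highest control, at 3.58, with 0 below all controls. A single array, an Olig2 tumour at 5.68, was above the table median.

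Cbln2 was hardly measured. Its single probe set (1434779_at) was at the floor on 18 of the 27 arrays, 4 of them controls. Above the table median were hGFAP replicate 4, at 5.54, and Ptc1+/- replicate 2, at 5.89, both among the 7 dimmest arrays before scaling. The highest control read 4.75, so no level in either tissue can be given beyond this.

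Tumours were then compared with each other, to ask whether the cre driver or the genotype changed these genes. The group order of Cbln1 was tissue without tumour, Tlx3, Olig2, Math1, hGFAP and Ptc1+/-, and every step after the first was smaller than the larger SD of the neighbours. For Cbln3 the order was tissue without tumour, Tlx3, hGFAP, Math1, Olig2 and Ptc1+/-, again with only the first step larger than the SD. Cbln4 ran from Olig2 through Math1, Tlx3, hGFAP and Ptc1+/- down to tissue without tumour, and only the last step, of 2.05, exceeded the larger SD of 0.76. For Grid1 the order was tissue without tumour, hGFAP, Math1, Tlx3, Olig2 and Ptc1+/-, with no step larger than the SD of its neighbours.

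Of the 7 probe sets, 0 were called by limma between hGFAP and Olig2 together and Math1 and Tlx3 together, where 0.0365% of all probe sets were called and where the lowest adjusted p of the main probe sets was that of Grid1 at 0.659. On the main probe sets the differences in that comparison were -0.17 for Cbln1 (95% interval from -0.65 to 0.31), -0.24 for Cbln3 (from -1.35 to 0.88), -0.23 for Cbln4 (from -0.83 to 0.36) and 0.24 for Grid1 (from -0.22 to 0.70). Between Ptc1+/- and SmoM2 tumours 0 were called too (0.262% of all). There Cbln3 stood at -2.31 (95% interval from -4.00 to -0.62, unadjusted p = 0.00904, adjusted p = 0.301) and Cbln4 at -1.17 (from -2.07 to -0.26, unadjusted p = 0.0132, adjusted p = 0.335). The Ptc1+/- side holds 2 arrays, and leaving out replicate 1 or replicate 2 gave -1.25 or -3.37 for Cbln3 and -1.71 or -0.63 for Cbln4. The second probe set of Cbln3 gave -1.06 (unadjusted p = 0.0945, adjusted p = 0.535). Between Tlx3 and Math1 tumours 0 passed (0.00332% of all), with Cbln3 at 0.68 (from -1.16 to 2.52) and Grid1 at -0.50 (from -1.26 to 0.27). Without adjustment for multiple tests, 0 of the 7 probe sets had a p under 0.05 between hGFAP and Olig2 and Math1 and Tlx3, and 0 between Tlx3 and Math1, while between Ptc1+/- and SmoM2 tumours the only such probe sets were those of Cbln3 and Cbln4 given here.

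Grid1 was the member called between tumour groups, and by a narrow margin. It was higher in hGFAP than in Olig2 tumours by 0.97 (SE 0.25, 95% interval from 0.45 to 1.49, limma adjusted p = 0.0417), with means of 6.12 ± 0.39 (SD, n = 6) and 5.14 ± 0.46 (SD, n = 7). In this comparison 2.26% of all probe sets were called, 1.31% higher in hGFAP. The call was lost in 27 of 43 alternative settings, among them quantile normalization (0.83, adjusted p = 0.0669) and a fit of these 2 groups alone (0.97, adjusted p = 0.209), though the sign held in all 43. Leaving out any 1 of the 6 hGFAP tumours, Olig2 replicates 5, 6 or 7, Math1 replicate 2, Tlx3 replicates 1 or 2, or controls 2 to 5 also ended it (0.84 to 1.07, adjusted p from 0.0503 to 0.104). The F test over the 4 SmoM2 groups did not pass (adjusted p = 0.11, with 0.495% of all probe sets called). The 3' to 5' ratio moved with Grid1 over the 21 tumour arrays (r = 0.55, permutation p = 0.00924, adjusted p = 0.0499, rho = 0.65, permutation p = 0.00162, adjusted p = 0.0119, r = 0.68 without the 2 farthest arrays), at 0.72 within Olig2 and 0.05 within hGFAP tumours. With that ratio as a covariate the difference was 0.78 (adjusted p = 0.115), and without the 5 arrays of highest ratio it was 1.13 (adjusted p = 0.0164).

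The partners of the cerebellins were read from 2 lists chosen for the pathway. The list of cerebellin partners and related synapse organizers held 22 genes, of which 18 were measured. Of these 18, 10 fell and 4 rose (median difference -0.72). Among the neurexins, the presynaptic receptors of cerebellins, Nrxn2 fell by 2.55 (adjusted p = 1.10e-08), and Nrxn3 stood at -0.58 (adjusted p = 0.0792). Lrrtm3, a postsynaptic neurexin ligand, fell furthest in the list, at -3.02 or lower, with 1 tumour array at the floor. After it and Nrxn2 came the calsyntenin gene Clstn3, a neurexin-binding adhesion protein, at -2.50 and Il1rapl1, a postsynaptic organizer, at -2.19 or lower, with 2 tumour arrays at the floor.

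C1ql1 rose by 3.26 (adjusted p = 3.10e-11), by 2.91 in hGFAP to 3.67 in Math1 tumours. It encodes a secreted C1q-like relative of the cerebellins that binds the adhesion receptor of Adgrb3, which itself fell, at -1.30 (adjusted p = 5.62e-07). C1ql3, of the same family, rose by 1.47, the adhesion gene Flrt2 by 1.64 and the receptor phosphatase gene Ptprs by 1.38. The related Ptprd stood at 0.08 (adjusted p = 0.784).

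The list of postsynaptic partners at the parallel fibre synapse held 14 genes, of which only 6 were measured. Of these 6, 4 fell and 0 rose (limma, median -2.12). All 6 differences were below 0, and 5 had an unadjusted p under 0.05. The 4 that fell were the scaffold genes Dlg2 at -2.83, Dlg4 at -2.81 and Homer3 at -2.36, and the AMPA receptor subunit gene Gria3 at -1.88. Gria2, another AMPA receptor subunit gene, stood at -0.14 (adjusted p = 0.653), and Gopc, which binds delta receptors, at -0.71 (adjusted p = 0.0693). Over all genes by main probe set 26.4% rose and 25% fell.

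**Figure D4:**
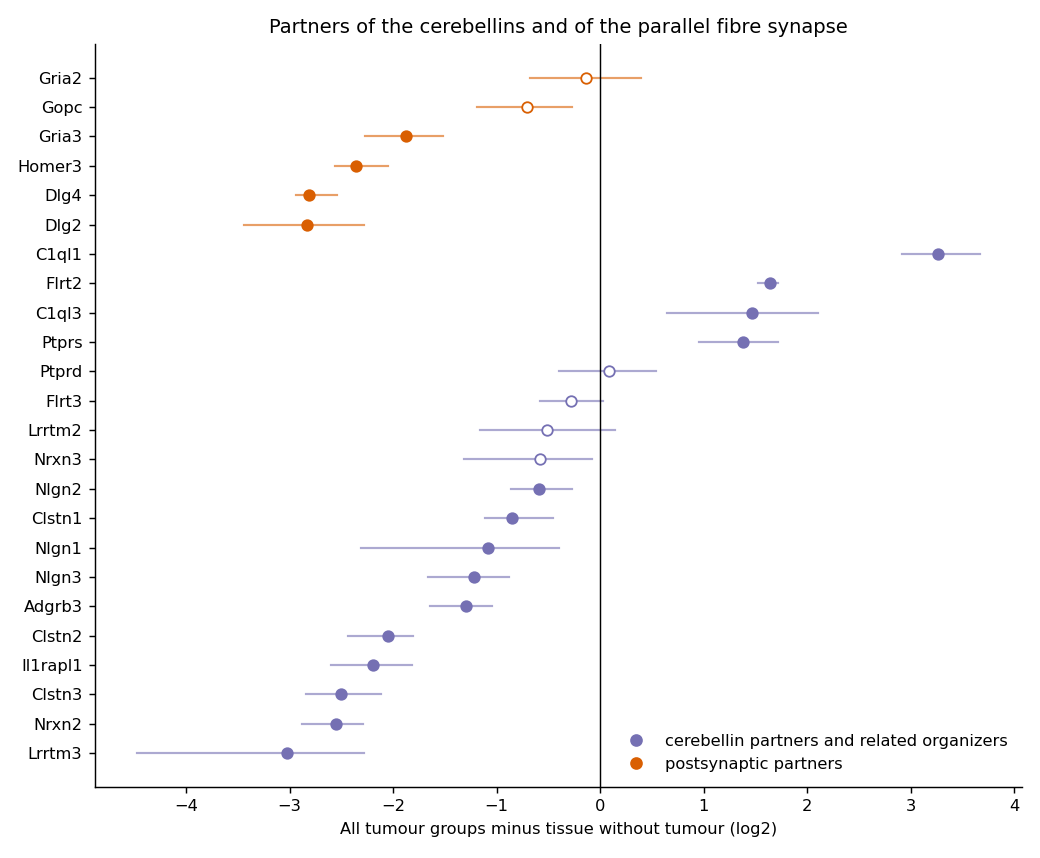
Difference of all tumour groups from tissue without tumour on the log2 scale (horizontal axis) for the 24 measured partner genes (vertical axis). Points are the mean over 5 tumour groups, filled where the adjusted p was under 0.05, and lines span the 5 single groups. C1ql1, at 3.26, lies furthest right and Lrrtm3, at -3.02, furthest left.

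Genes whose pattern over the 27 arrays was most like each member were listed by Pearson's r, as a description without a test, since all arrays share the split between tumour and tissue without tumour. For Cbln1 these were Fgf12 (r = 0.973), Prkar1b, Kcnip4, Plcb4 and Inpp5a (r = 0.956), and over the 21 tumour arrays alone their r ran from 0.612 to 0.829. For Cbln3 they were Chn2 (r = 0.987), Eno2, Gabra6, Vsnl1 and Slc12a5 (r = 0.976), with r from 0.919 to 0.956 over the tumours alone. Cbln4 was most like 2310022B05Rik (r = 0.938), Cbfb, Lrig3, E130114P18Rik and Carhsp1 (r = 0.923), and over the tumours alone r ran from 0.662 to 0.825. Grid1 had looser likenesses, to Pdcd6ip (r = 0.844), Stap2, Prkca, Dusp3 and Mink1 (r = 0.822), with r from 0.716 to 0.774 over the tumours.

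Other cell types of the tissue were read from marker lists. All 8 measured genes of GABAergic interneurons fell (median -3.72), as did all 6 of oligodendrocytes (median -2.75) and 8 of 9 of astrocytes and Bergmann glia (median -1.30), where Gfap rose by 2.24. Of 4 choroid plexus genes 0 were called by limma, and 0 had an unadjusted p under 0.05 (median 0.25, with Ttr at 1.93 and an adjusted p of 0.411). Of 4 genes of cerebellar nuclei and unipolar brush neurons, Slc17a6, a glutamate transporter gene, rose by 4.82 or more, with 4 controls at the floor, while the neurofilament gene Nefh fell, to a difference of -4.10 or lower with 4 tumour arrays at the floor, as did Eomes, at -1.69 or lower with 1 at the floor. Between hGFAP and Olig2 tumours, where Grid1 differed, the granule markers Fat2 (2.78, adjusted p = 0.0304) and Neurod2 (1.2, adjusted p = 0.0183), the astrocyte gene Aqp4 (1.17, adjusted p = 0.0144), the microglial gene Csf1r (1.16, adjusted p = 0.00234) and the regional gene En1 (1.78, adjusted p = 0.0245) were also higher in hGFAP tumours. Fat2 and En1 had tumour arrays at the floor, and these 5 genes were picked out after their values were seen. They do not stand for their lists. Of the 7 microglial genes Csf1r alone was called, the list's median was -0.02, and C1qa stood at -0.65 (adjusted p = 0.384) and Lyz2 at -0.92 (adjusted p = 0.173). The median was 0.72 for the granule list and 0.27 for the astrocyte and the regional lists, against 0.09 over all genes. Larger medians were found for cerebellar nuclei and unipolar brush neurons (1.03) and Purkinje cells (0.98). It was 0.42 for oligodendrocytes, 0.31 for GABAergic interneurons, 0.18 for choroid plexus and -0.45 for granule neuron precursors. The log2 of the summed signal of the astrocyte list ran from 12.81 to 13.75 in hGFAP and from 12.64 to 13.38 in Olig2 tumours. Over the 21 tumour arrays Grid1 and the granule list, a sum in which Rbfox3 is brightest, had r = 0.54 (permutation p = 0.0118, adjusted p = 0.0499, rho = 0.60, permutation p = 0.00465, adjusted p = 0.0256, r = 0.68 without the 2 farthest arrays), at 0.51 within Olig2 and -0.39 within hGFAP tumours. The part of these cells in the difference of Grid1 was not tested.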

How the data were processed

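The deposited values are probe set intensity signals of 1 array per sample, made by the authors with MAS5, per the submitters' processing notes, and its version and scaling target are not given in the sources used here. Genes were named through the platform annotation, in which 34958 of the 45101 probe sets had 1 gene, 932 several and 9211 none listed. Each array was scaled so that its trimmed mean (2% off each end, 42.58 to 205.96 as deposited) was 123.61. Signals under 10.3, the 20th percentile, were set to it, and log2 was taken. Probe sets above 45.6, the table median, on at least 3 arrays (30107) were fitted with limma 3.58.1 in R 4.3.3 over all 27 arrays and 6 groups, without covariates, with Benjamini-Hochberg adjustment at 0.05. The fit across the 5 tumour groups weights groups equally. A gene's main probe set is that with the highest mean. All members are named, and of other genes those of the marker and partner lists with the largest changes, those whose role bears on a member, and the 5 genes most like each member. The procedure was tested on simulated data. Members and lists were chosen with earlier results of these data known. The number of arrays limits the precision. Settings tried instead are in the closing section, and promoter sequences are RefSeq's.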

Additional observations from a re-analysis of the deposited data

Results flagged for a closer look

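Grid1 (1441499_at) was higher in hGFAP than in Olig2 tumours by 0.97 on the log2 scale, by a test of the difference itself (limma adjusted p = 0.0417), while both groups are set against the same tissue without tumour, at -0.31 and -1.29. Its lowest hGFAP tumour, at 5.65, lay below the highest Olig2 tumour, at 5.77. The second probe set of the gene did not pass the filter on low signals, so the difference has no second measurement. By Dixon's criterion no single array stood apart from its group, where chance alone marks about 1 in 20. It was applied to the 7 tested probe sets in tissue without tumour, Olig2 and hGFAP tumours, 21 groups in all, since the other groups hold 3 arrays or fewer. It looks at 1 array at a time, so it does not mark a pair such as Olig2 replicates 2 and 3, at 9.27 and 9.06 for Cbln3.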

How the results depend on the processing

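Under 43 other settings (27 leaving out 1 array each, 16 others) the differences between all tumours and tissue without tumour kept their sign and call for the main probe sets, from -3.14 to -2.65 for Cbln1, -5.55 to -4.96 for Cbln3, 2.64 to 3.24 for Cbln4 and -1.34 to -0.88 for Grid1. The call of Grid1 between hGFAP and Olig2 tumours was less stable (0.78 to 1.17, adjusted p 0.0132 to 0.255). It was lost, leaving 0 members called, with no scaling, quantile normalization, no filter, only the groups of the contrast, array weights, the replicate block, the 3' to 5' ratio or brightness as a covariate, without the 7 dimmest arrays, without the Mxi1 controls and with only controls from Olig2 and hGFAP lines. Leaving out 1 array gave 0 to 1 members called. No scaling puts the median of all probe sets as low as -0.96 (Ptc1+/- against tissue without tumour, 0.13 with scaling). In that setting 2 members were called between hGFAP and Olig2 and Math1 and Tlx3 (Cbln1 at -0.96, Cbln4 at -1.02). There 14136 of all probe sets were called too, and their median was -0.75, so these 2 calls do not single out the members. Between Ptc1+/- and SmoM2 tumours 2 members were called without scaling (Cbln3 at -3.25, Cbln4 at -2.10), with 797 of all probe sets called. Without scaling, Grid1 in Tlx3 tumours was not called (-0.90, adjusted p = 0.162). Grid1 in Math1 tumours passed in 10 of the 43 settings (-1.10 to -0.54 over all).

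Signs turned only for differences between tumours that were not called. With no scaling these were Grid1 between hGFAP and Olig2 and Math1 and Tlx3 (-0.54), Cbln1 between hGFAP and Olig2 (0.15) and Cbln4 between Tlx3 and Math1 (0.16). With brightness as a covariate Cbln1 turned to 0.11 in the first of these comparisons and to 0.16 between Ptc1+/- and SmoM2 tumours. Leaving out 1 array turned Cbln1 between hGFAP and Olig2 (-0.29 to 0.09), Cbln3 in the first comparison (-0.46 to 0.04) and Cbln4 between Tlx3 and Math1 (-0.43 to 0.22). The cause was not tested.

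Counts over all probe sets moved most between tumours. For hGFAP against Olig2 the count of 680 ran from 3 (only those groups) to 4773 (without the 5 arrays of highest 3' to 5' ratio), and from 84 to 3591 when leaving out 1 array. It ran from 3 to 14136 around 11 between Math1 and Tlx3 and the other SmoM2 tumours, from 13 to 797 around 79 for Ptc1+/- against SmoM2, from 0 to 154 around 1 for Tlx3 against Math1 and from 16 to 3960 around 149 over the SmoM2 groups. Against tissue without tumour, counts for Math1 ran from 5967 to 14360 around 9665 and for Tlx3 from 6788 to 15808 around 10135.

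Replicate numbers did not pair the arrays: over 49 pairs with the same number the correlation of deviations ran from -0.36 to 0.26, and 3 of 27 arrays correlated best with their own number. With the replicate block the differences over all tumours were -2.84 for Cbln1, -5.36 for Cbln3, 3.12 for Cbln4 and -1.08 for Grid1. With that block 143 probe sets and 0 members were called between hGFAP and Olig2 (Grid1 at 0.87, adjusted p = 0.0972), Cbln3 between hGFAP and Olig2 and Math1 and Tlx3 turned to 0.06, and Grid1 in Math1 tumours was called (-0.97, adjusted p = 0.0304). Signal near the floor limits Cbln2, the second probe set of Grid1 and Cbln4 in tissue without tumour.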
